A study of Mus musculus with 3 samples.

Results

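The miR-17-92 and miR-106b-25 clusters are groups of microRNA (miRNA) genes that lie side by side and are each cut from a shared transcript. Their main mature products were followed in small RNA libraries of hearts from wild type C57BL/6 mice aged 1, 7 and 28 days (P1, P7 and P28). The 9 products were picked by their miRBase accessions, a rule that uses no measured value, out of 1900 mature accessions in the count table. They were miR-17-5p (MIMAT0000649), miR-18a-5p (MIMAT0000528), miR-19a-3p (MIMAT0000651), miR-20a-5p (MIMAT0000529), miR-19b-3p (MIMAT0000513) and miR-92a-3p (MIMAT0000539) of miR-17-92, and miR-106b-5p (MIMAT0000386), miR-93-5p (MIMAT0000540) and miR-25-3p (MIMAT0000652) of miR-106b-25. They filled 11 of 2049 rows, since miR-19b-3p and miR-92a-3p have 2 rows each, and rows were summed per accession. The labels give the tissue as heart, and the study describes it as cardiac ventricles. Each age was represented by 1 library, so no difference below has a replicate check.

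A miRNA guides a silencing complex to messenger RNAs that pair with its seed, bases 2 to 8 from its 5′ end, and lowers their output. miR-17-92 is known as an oncogenic cluster that MYC and E2F factors switch on in dividing cells, and mice that lack it die at birth with underdeveloped lungs and a heart septal defect. In heart muscle, miR-17-92 is known to promote cardiomyocyte division, and the first weeks after birth are the time in which cardiomyocytes leave the cell cycle. miR-106b-25 is its relative inside Mcm7, a gene for a subunit of the helicase that unwinds DNA for replication.

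In the mouse genome (GRCm38, the same build as mm10), the 6 hairpins of miR-17-92 span 836 bases at chr14:115043671-115044506, on the plus strand. The GENCODE annotation (release M21) places all 6 in an exon of the noncoding host transcript of Mir17hg. The 3 hairpins of miR-106b-25 span 498 bases at chr5:138165321-138165818 on the minus strand, inside Mcm7. Mir106b is intronic in both Mcm7 transcripts that span it, and Mir93 and Mir25 are each intronic in 2 transcripts and exonic in 1. Another related cluster, from Mir106a to Mir363, lies on the X chromosome at chrX:52741693-52742567 and carries further copies of miR-19b-3p and miR-92a-3p.

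The mature sequences fell into 4 seed groups, shown here because the ratios between ages are described by these groups (RefSeq, GRCm38.p6, 9 of 9 members matched, seed in capitals). The miR-17 seed was shared by 4 members, and 7 of 1679 mature names in the same RefSeq table (0.417%) carry it.
miR-17-5p: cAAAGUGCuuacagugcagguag
miR-20a-5p: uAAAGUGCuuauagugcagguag
miR-106b-5p: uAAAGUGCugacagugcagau
miR-93-5p: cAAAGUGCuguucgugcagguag

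The miR-18 seed differs from it by 1 base, and the miR-19 and miR-92 seeds are unrelated in sequence.
miR-18a-5p: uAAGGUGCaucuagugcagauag
miR-19a-3p: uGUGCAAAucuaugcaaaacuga
miR-19b-3p: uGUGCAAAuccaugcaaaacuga
miR-92a-3p: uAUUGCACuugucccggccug
miR-25-3p: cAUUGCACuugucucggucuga

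Positions counted from 1 at the 5′ end, miR-19a-3p and miR-19b-3p differ at a single position (U11C), miR-17-5p and miR-20a-5p at 2 (C1U and C12U), and miR-92a-3p and miR-25-3p at 3 of 21 compared (U1C, C14U and C18U). From the X-linked cluster, miR-106a-5p differs from miR-17-5p at 1 position (U10A) and miR-20b-5p from miR-20a-5p at 2 (U1C and U10C).
miR-106a-5p: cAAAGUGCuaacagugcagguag
miR-20b-5p: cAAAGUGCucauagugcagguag

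How reads that fit several of these sequences were assigned is not stated, so counts of near-identical members may be partly shared. No row of another accession matched a member's row within 1% in all 3 libraries.

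The libraries held 1944237 (P1), 2465680 (P7) and 2842526 (P28) counts, and 3 counts correspond to 1.54, 1.22 and 1.06 CPM (counts per 1000000 counts of the library). All values below are CPM with 95% Clopper-Pearson intervals, or log2 ratios of CPM with intervals made from the same reads. The intervals cover counting error only and compare libraries, not ages. In RNA of whole tissue, fewer cells of a type and less RNA per cell cannot be told apart. Whether a library came from 1 heart or from several is not given in the sources used here.

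Of all reads, the 9 miRNAs together took 0.649% in the P1 library, 0.393% in the P7 library and 0.198% in the P28 library. The summed level went from 6488 CPM at P1 to 3931 at P7 and 1979 at P28, which is 30.5% of the P1 level. By library totals every member was lowest in the P28 library. For P28 against P1 the log2 ratio was below 0 in 9 of 9, and so was its interval. The share of all accessions with an interval below 0 was not computed. Most of the 291 accessions compared also stood lower at P28 under this scaling. The log2 ratio, as a point value, was below 0 in 68.0% of them for P28 against P1. For P28 against P7 it was below 0 in 75.6%. Among the members, the exception under other scalings was miR-92a-3p. Its log2 ratio for P28 against P7 was 0.029 by TMM factors and 0.155 by DESeq2 size factors. By library totals the level at P28 was between 1.85-fold and 8.85-fold lower than at P1, or from -0.89 to -3.15 on the log2 scale. Under DESeq2 size factors the log2 ratios ran from -0.20 to -2.45.

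**Figure D1:**
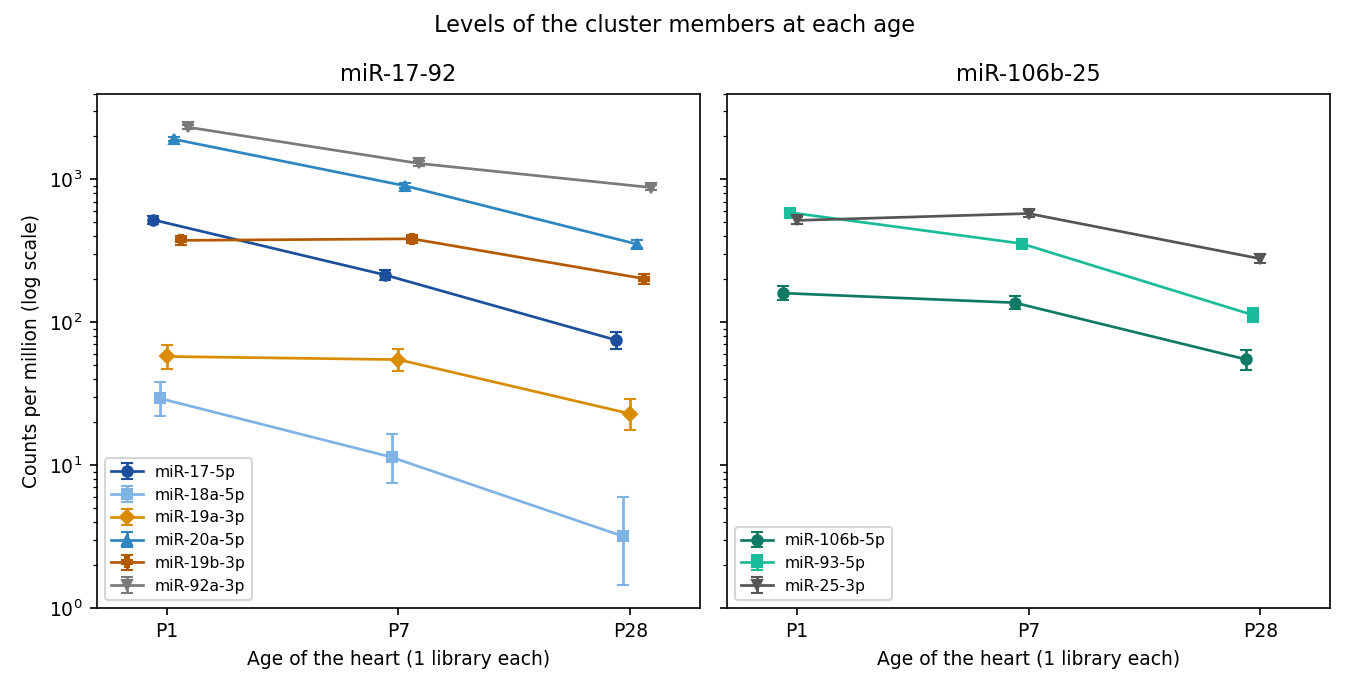
CPM (log scale) of each member in the P1, P7 and P28 libraries, with 95% Clopper-Pearson intervals for counting error and 1 library per age; lines only join the points of a member. miR-17-5p, miR-18a-5p, miR-20a-5p, miR-92a-3p and miR-93-5p go down at both steps. miR-106b-5p does too, with the first step within counting error. miR-19a-3p and miR-19b-3p lie level between P1 and P7 and are lower at P28.

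The miR-17 seed members target, among others, transcripts of cell cycle inhibitors such as Cdkn1a (p21), and in these hearts their levels went down at both steps, although for miR-106b-5p the first was within counting error. miR-20a-5p, the most abundant of them, was at 1914 CPM (1853 to 1977) at P1, 902 (865 to 940) at P7 and 352 (331 to 375) at P28. miR-17-5p was at 523 CPM (491 to 556) at P1, 215 (197 to 234) at P7 and 74.9 (65.2 to 85.7) at P28. By library totals these members of miR-17-92 fell by more than 2-fold at both steps. The second step was short of 2-fold under other scalings. For P28 against P7, miR-20a-5p was at -0.77 (TMM) and -0.64 (DESeq2), and miR-17-5p at -0.93 and -0.80. On the log2 scale, miR-17-5p was at -1.28 (-1.44 to -1.13) for P7 against P1 and -2.80 (-3.02 to -2.59) for P28 against P1. miR-20a-5p was at -1.09 (-1.16 to -1.01) and -2.44 (-2.54 to -2.34).

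The same seed is carried by 2 members of miR-106b-25. miR-93-5p was at 587 CPM (553 to 622) at P1, 356 (333 to 380) at P7 and 112 (100.2 to 125) at P28. Its log2 ratio was -0.72 (-0.85 to -0.59) for P7 against P1, short of 2-fold, and -1.66 (-1.85 to -1.48) for P28 against P7. By library totals most of its decline thus came after P7. Under DESeq2 size factors the steps were closer, at -0.74 and then -0.95. miR-106b-5p was at 160.0 CPM (143 to 179) at P1, 137 (123 to 153) at P7 and 54.9 (46.6 to 64.2) at P28. Its levels at P1 and P7 differed by less than counting error, with a log2 ratio of -0.22 (-0.45 to 0.004), and it fell after P7, with a log2 ratio of -1.32 (-1.60 to -1.04). At P28 against P1, miR-93-5p was at -2.39 (-2.57 to -2.21) and miR-106b-5p at -1.54 (-1.83 to -1.26).

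miR-18a-5p, the least abundant member, was also the one with the lowest ratio at P28. Its reads numbered 57, 28 and 9 in the P1, P7 and P28 libraries, or 29.3 CPM (22.2 to 38.0), 11.4 (7.55 to 16.4) and 3.17 (1.45 to 6.01). Its log2 ratio for P28 against P1 was -3.15 (-4.41 to -2.19), the widest interval of the 9. Its mean of 14.6 CPM passed the filter at 10 CPM only through the younger hearts, so it had to be higher there to be counted. Leaving out this miRNA, miR-17-5p had the lowest ratio.

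The miR-19 seed members, which in mouse lymphoma account for much of the oncogenic activity of the cluster, kept their level through the first week. miR-19b-3p was at 374 CPM (348 to 403) at P1, 384 (360 to 409) at P7 and 202 (186 to 219) at P28. miR-19a-3p was at 57.6 CPM (47.4 to 69.3), 54.8 (45.9 to 64.8) and 22.9 (17.6 to 29.1). For both, P1 and P7 differed by less than counting error, with log2 ratios of 0.04 (-0.10 to 0.18) for miR-19b-3p and -0.074 (-0.45 to 0.30) for miR-19a-3p. The latter was at 0.055 when the totals left out the 10 most abundant accessions. At P28 against P7 they were at -0.93 (-1.08 to -0.78) and -1.25 (-1.71 to -0.82), and only the latter passed 2-fold.

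The miR-92 seed members went opposite ways in the first week. miR-92a-3p, the most abundant of the 9 and known as an inhibitor of vessel growth in endothelial cells, was at 2326 CPM (2259 to 2395) at P1, 1294 (1250 to 1340) at P7 and 878 (844 to 914) at P28. miR-25-3p was at 517 CPM (485 to 549.9) at P1, 578 (548 to 608) at P7 and 279 (260 to 299) at P28. Against P1, the P7 library thus had less miR-92a-3p, with a log2 ratio of -0.85 (-0.91 to -0.78), and slightly more miR-25-3p, at 0.16 (0.04 to 0.28), neither by 2-fold. After P7 miR-25-3p fell, with a log2 ratio of -1.05 (-1.18 to -0.93), whereas miR-92a-3p was at -0.56 (-0.64 to -0.48), a ratio that turned positive under TMM and DESeq2 scaling. At P28 against P1, miR-92a-3p fell, at -1.40 (-1.48 to -1.33), and miR-25-3p was at -0.89 (-1.03 to -0.76).

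**Figure D2:**
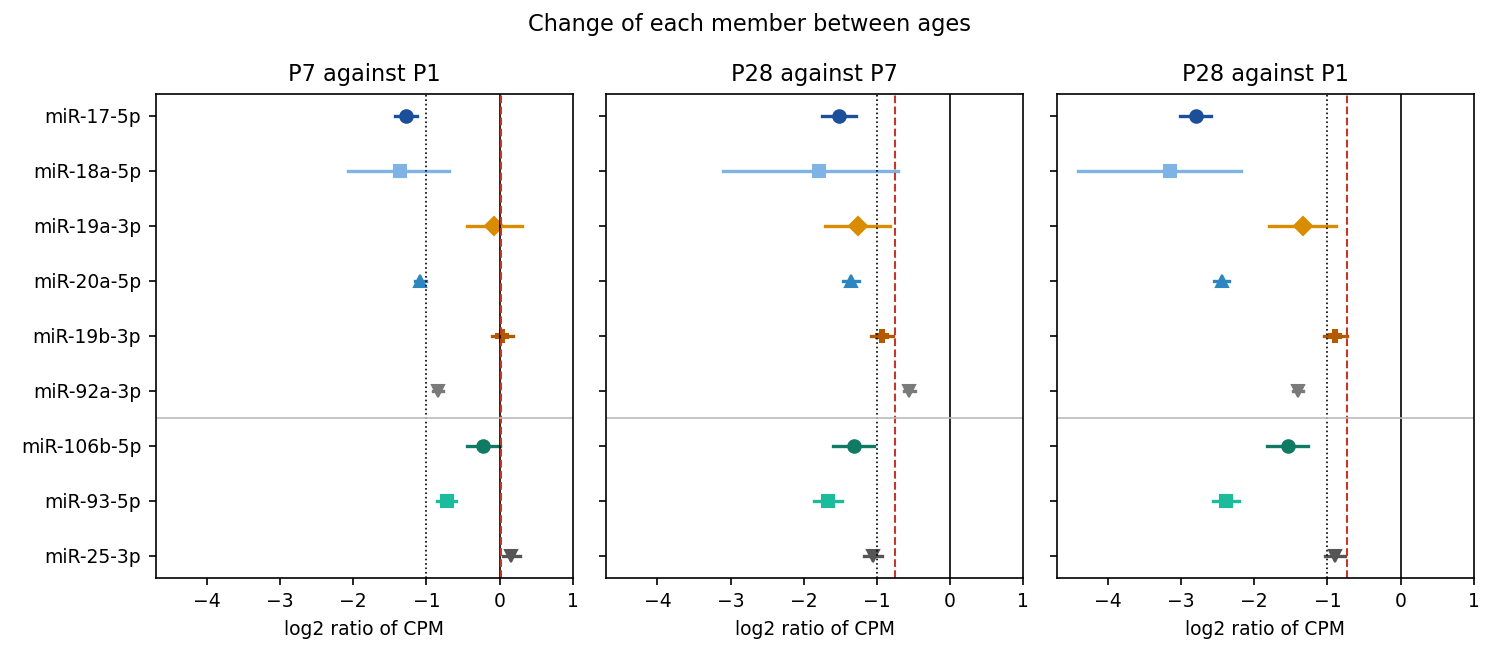
Log2 ratio of CPM of each member for P7 against P1, P28 against P7 and P28 against P1, with 95% intervals for counting error; the solid line marks no change, the dotted line a 2-fold decrease and the dashed line the median of all accessions compared. At P28 against P1 the point values of the miR-17 and miR-18 seed members lie at -1.54 or lower and the others at -1.40 or higher. The intervals of miR-106b-5p and miR-92a-3p overlap there.

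The declines were read against the whole table. Accessions below 10 CPM on average across the libraries were set aside. The remainder included 9 of 9 members among 291 accessions, 12 of them stem-loop precursors. An accession was called lower or higher when the ratio reached 2-fold. At P7 against P1, 3 of 9 members were called lower and 0 higher, where 11.7% of all accessions compared were lower and 10.7% higher. At P28 against P1, 7 of 9 were lower and 0 higher, against 41.6% and 13.1% of all. At P28 against P7, 7 of 9 were lower and 0 higher, against 41.2% and 2.75%. miR-18a-5p, which passed the filter only through the younger hearts, is in each of these counts of lower members. It is also in those by TMM and DESeq2 size factors below. The median log2 ratio of the members was -0.72, -1.54 and -1.32 in these comparisons, and that of all accessions 0.02, -0.73 and -0.75.

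The median accession thus also stood lower at P28. Relative to the median accession, P28 against P1 left miR-18a-5p at -2.42, miR-17-5p at -2.07, miR-20a-5p at -1.72 and miR-93-5p at -1.66 on the log2 scale. By the same measure miR-19b-3p and miR-25-3p were both at -0.16. That median itself depended on the scaling. By TMM factors it was -0.10 and by DESeq2 size factors -0.03, and 4 of 9 members (miR-17-5p, miR-18a-5p, miR-20a-5p and miR-93-5p) were lower at P28 than at P1 under either of these scalings, against 27.5% of all accessions. At P28 against P7, TMM left 2 of 9 members lower (miR-18a-5p and miR-93-5p) against 23.0% of all, and DESeq2 size factors left 1 (miR-18a-5p) against 19.9%, so the members' share at that step was near or below that of all accessions. The share of all calls that were higher was 23.9% by library totals for P28 against P1, and 46.7% (TMM), 47.7% (DESeq2) and 40.8% (total without the 10 most abundant accessions) otherwise. For P28 against P7 it was 6.25%, and 32.3%, 40.8% and 16.8%. For P7 against P1 it was 47.7%, and 63.2% without the 10 most abundant accessions.

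The next comparison set one cluster against the other. The levels and ratios of a single cluster depend on the scaling, whereas the difference between the clusters' log2 ratios does not. The summed miR-17-92 members were at 5224 CPM (5123 to 5326) at P1, 2861 (2795 to 2928) at P7 and 1534 (1488 to 1580) at P28. Those of miR-106b-25 were at 1264 CPM (1214 to 1315), 1070.3 (1029.9 to 1112) and 446 (422 to 471). By library totals the log2 ratios of miR-17-92 at the successive steps were -0.87 (-0.91 to -0.82) and then -0.90 (-0.95 to -0.84). The order of these steps depended on the scaling, with -0.83 and then -0.31 under TMM and -0.89 and then -0.19 under DESeq2 size factors. The ratios of miR-106b-25 were -0.24 (-0.32 to -0.16) and then -1.26 (-1.36 to -1.17) by library totals, and -0.20 and then -0.68 under TMM or -0.26 and then -0.55 under DESeq2 size factors. In the first week the log2 ratio of miR-17-92 was thus lower than that of miR-106b-25 by 0.63 (interval of the difference -0.72 to -0.54). After P7 it was higher by 0.36 (0.25 to 0.48), which left a difference of -0.26 (-0.38 to -0.15) over the whole time. With miR-19b-3p and miR-92a-3p left out, which can also come from the X chromosome, the rest of miR-17-92 was at -1.09 (-1.16 to -1.03) and then -1.38 (-1.48 to -1.29) by library totals. Its most abundant member, miR-20a-5p, was at -1.11 and then -0.64 under DESeq2 size factors, so the order of its steps turned there too. Beside miR-106b-25, the rest of miR-17-92 was lower at both steps, although the intervals after P7 overlapped. The higher ratio of miR-17-92 after P7 was thus not seen without miR-19b-3p and miR-92a-3p. For P28 against P1 the rest of miR-17-92 was at -2.48 (-2.57 to -2.39) and miR-106b-25 at -1.50 (-1.60 to -1.41).

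Within each cluster the make-up changed with age, although its members are cut from a shared transcript. Reads of miR-19b-3p and miR-92a-3p can also come from the X chromosome. The shares in miR-17-92 may thus not be those of its own transcript alone. In miR-17-92, miR-92a-3p gave 44.5% (43.6 to 45.5) of the cluster's reads at P1, 45.2% (44.1 to 46.4) at P7, and 57.3% (55.8 to 58.8) at P28. The share of miR-20a-5p went the other way, from 36.6% (35.7 to 37.6) to 31.5% (30.4 to 32.6) and 23.0% (21.7 to 24.2). miR-17-5p, with an interval of 9.43 to 10.6% at P1, was at 7.51% at P7 and 4.89% at P28. miR-19b-3p went from 7.17% (6.67 to 7.69) at P1 to 13.4% (12.6 to 14.2) at P7 and stayed there, with 13.2% (12.2 to 14.2) at P28. In miR-106b-25, miR-25-3p went from 40.9% (39.0 to 42.9) to 54.0% (52.0 to 55.9) and 62.5% (59.8 to 65.2), while miR-93-5p went from 46.4% (44.5 to 48.4) to 33.2% (31.4 to 35.1) and 25.2% (22.8 to 27.7). miR-106b-5p held a steady share of 12.7%, 12.8% and 12.3%, with overlapping intervals. These are shares of reads, and how evenly the different sequences were captured was not tested.

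**Figure D3:**
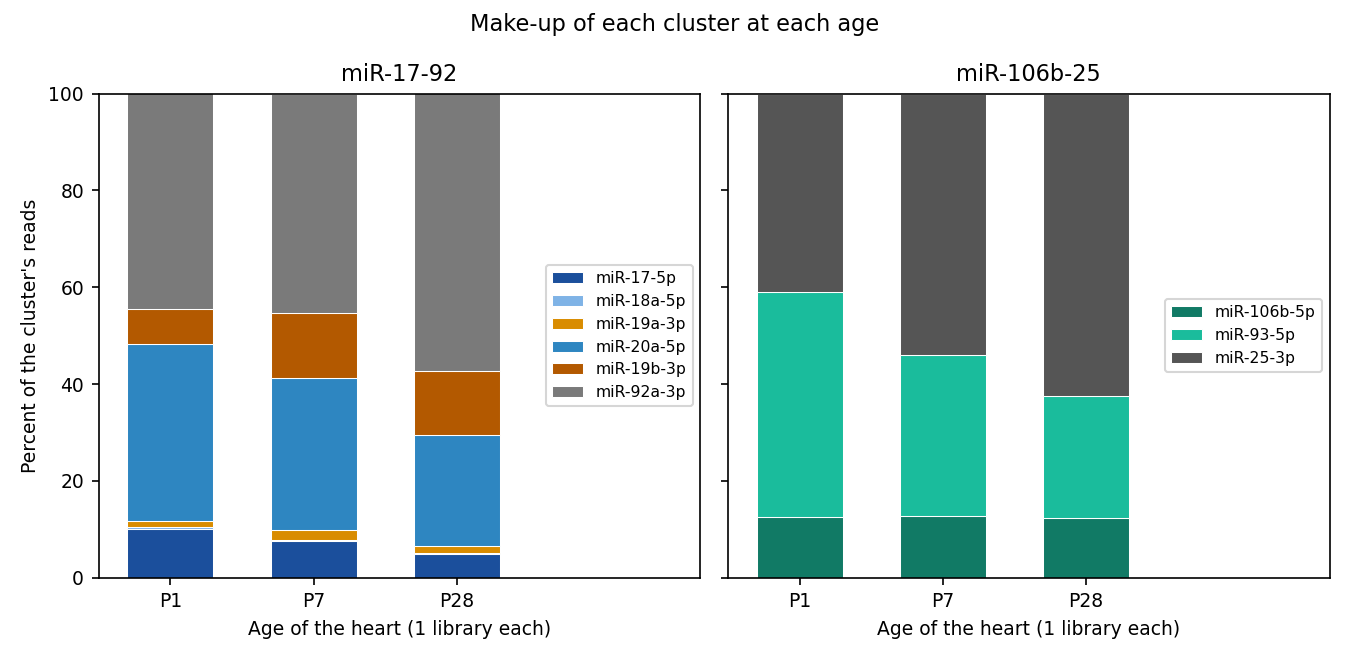
Percent of each cluster's reads that came from each member in the P1, P7 and P28 libraries (1 library per age; bars sum to 100). The share of the miR-92 seed member grows in both clusters, from 44.5% to 57.3% for miR-92a-3p and from 40.9% to 62.5% for miR-25-3p. The joint share of the miR-17 seed members shrinks, although that of miR-106b-5p is steady. Reads of miR-19b-3p and miR-92a-3p can also come from the X chromosome.

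In both clusters the miR-17 seed members lost ground to the other members. Their joint share went from 46.6% at P1 to 39.0% at P7 and 27.9% at P28 in miR-17-92, and from 59.1% to 46.0% and 37.5% in miR-106b-25. Expressed as a difference in log2 ratio between these members and the rest of the same cluster, P28 against P1 gave -1.18 (-1.29 to -1.07) in miR-17-92 and -1.27 (-1.47 to -1.06) in miR-106b-25. P7 against P1 gave -0.45 (-0.54 to -0.36) and -0.76 (-0.92 to -0.60), and P28 against P7 gave -0.73 (-0.85 to -0.61) and -0.51 (-0.71 to -0.31). Among the members of miR-17-92 with a single row each, the difference was -0.77 (-1.19 to -0.35) for P28 against P1 and -0.73 (-1.06 to -0.40) for P7 against P1, but -0.04 (-0.46 to 0.39) for P28 against P7. The later part of the shift in that cluster was thus not detectable without miR-19b-3p and miR-92a-3p. The other members were then only miR-18a-5p and miR-19a-3p, with 9 and 65 reads at P28. Of these, miR-18a-5p had a lower ratio than the miR-17 seed members.

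Seed and hairpin arm could not be told apart in this set. The miR-17 and miR-18 seed members all come from the 5′ arm and the miR-19 and miR-92 seed members from the 3′ arm. At P28 against P1 the 5 members of the 5′ arm had log2 ratios from -3.15 to -1.54 (median -2.44), and the 4 of the 3′ arm from -1.40 to -0.89 (median -1.11). The ranges were also apart at P28 against P7, at -1.79 to -1.32 and -1.25 to -0.56, but overlapped at P7 against P1, at -1.36 to -0.22 and -0.85 to 0.16. These are ranges of point values, and the arms were not separated beyond counting error. At P28 against P7 the intervals of miR-106b-5p (-1.60 to -1.04) and miR-19a-3p (-1.71 to -0.82) overlapped. At P28 against P1 those of miR-106b-5p (-1.83 to -1.26) and miR-92a-3p (-1.48 to -1.33) did. The first row of miR-19b-3p alone was at -1.70 for P28 against P7, inside the range of the 5′ arm. This division into arms was noticed after the values were seen.

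Members with a common seed were compared in 6 chosen pairs, each over the 3 comparisons, by intervals of the difference with no adjustment for their number. The pairs of miR-106b-5p with miR-17-5p and with miR-20a-5p were not among them. Of these 18 intervals, 12 excluded 0. How often such intervals exclude 0 in pairs of other accessions was not computed. miR-17-5p was lower than miR-20a-5p in its log2 ratio by 0.36 for P28 against P1 (-0.60 to -0.12), although they lie in the same cluster and differ at 2 bases. miR-93-5p declined more than miR-106b-5p from the same Mcm7 host, the difference being 0.84 (0.50 to 1.18). miR-19a-3p and miR-19b-3p were not resolved, at -0.44 (-0.93 to 0.04). miR-20a-5p and miR-93-5p, from different chromosomes, differed by -0.36 (-0.51 to -0.21) for P7 against P1 and by 0.31 (0.09 to 0.53) in the other direction for P28 against P7. Over P28 against P1 their difference was -0.056 (-0.26 to 0.15) and was not resolved.

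miR-19b-3p and miR-92a-3p each have 1 mature sequence from a locus on chromosome 14 and another on the X chromosome, and the table holds 2 rows for each. The following lines show why a full-length read cannot tell the loci apart, with the mature part in capitals and 3 flanking bases of each hairpin in lower case.
Mir19b-1: ugcUGUGCAAAUCCAUGCAAAACUGAcug
Mir19b-2: ggcUGUGCAAAUCCAUGCAAAACUGAuug
Mir92-1: uggUAUUGCACUUGUCCCGGCCUGuug
Mir92-2: aagUAUUGCACUUGUCCCGGCCUGagg

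The first 2 lines are the chromosome 14 and X hairpins of miR-19b-3p and the last 2 those of miR-92a-3p. The table does not say which row stands for which locus. The rows of miR-19b-3p went apart after P7. The first row had 450, 642 and 227 reads at P1, P7 and P28, and the second 278, 305 and 347. The first row thus held 61.8% (58.2 to 65.4), 67.8% (64.7 to 70.8) and 39.5% (35.5 to 43.7) of the reads of miR-19b-3p, and at P28 it was the smaller. Its level fell after P7, with a log2 ratio of -1.70 (-1.93 to -1.48), whereas the second row was at -0.019 (-0.25 to 0.21). By library totals, the lower level of miR-19b-3p at P28 than at P7 thus lay in its first row.

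The rows of miR-92a-3p kept their order. The first row had 3379, 2542 and 1810 reads and the second 1143, 649 and 687, so that the first held 74.7% (73.4 to 76.0), 79.7% (78.2 to 81.0) and 72.5% (70.7 to 74.2). In the first week the second row fell by 1.16 (-1.30 to -1.02) and the first was at -0.75 (-0.83 to -0.68). After P7 the first was at -0.70 (-0.78 to -0.61) and the second at -0.12 (-0.28 to 0.03). In both miRNAs the first row was thus highest relative to the second at P7 and lowest at P28. All 6 intervals for the change in this ratio excluded 0, although the change for P28 against P1 follows from the successive steps. That of miR-92a-3p for P28 against P1 did so narrowly, at -0.17 (-0.33 to -0.004). Repeated rows of accessions outside the clusters were not compared in this way.

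**Figure D4:**
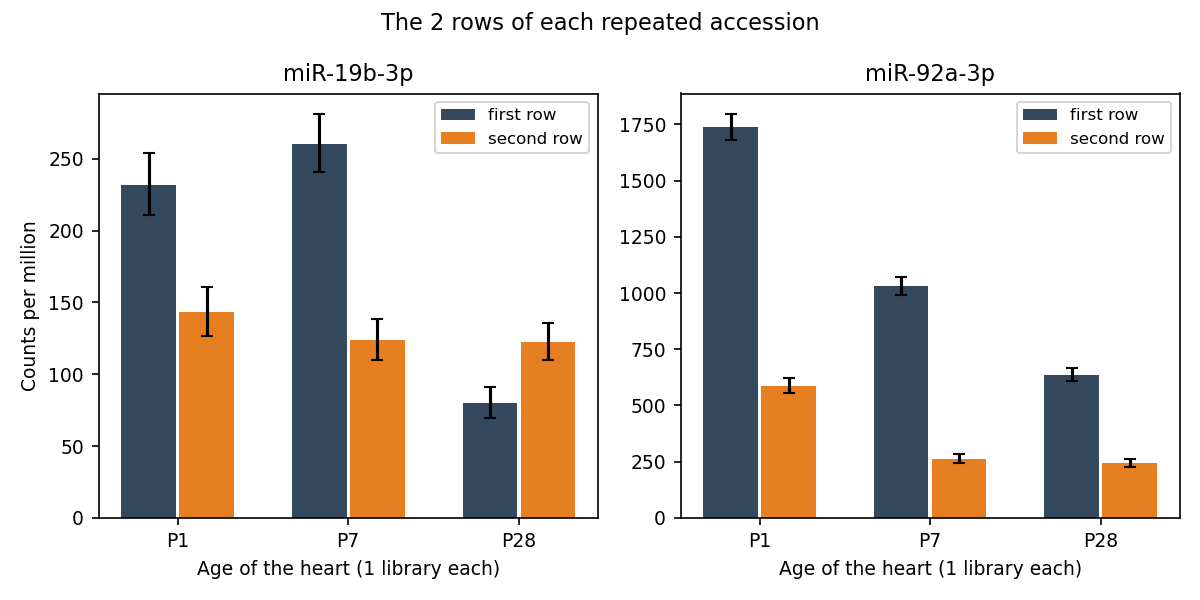
CPM of the first and second row of miR-19b-3p and of miR-92a-3p in the P1, P7 and P28 libraries, with 95% Clopper-Pearson intervals for counting error. The first row of miR-19b-3p drops from 260.4 to 79.9 CPM between P7 and P28 while its second row stays between 122 and 143 CPM at all ages.

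The order of the members by level kept its ends and changed in the middle. miR-92a-3p was first and miR-20a-5p second in each library, and miR-106b-5p, miR-19a-3p and miR-18a-5p were the last 3. The ratio of miR-92a-3p to miR-20a-5p grew from 1.21 (1.16 to 1.27) at P1 to 1.44 (1.36 to 1.52) at P7 and 2.49 (2.32 to 2.69) at P28. The 4 places between ran miR-93-5p, miR-17-5p, miR-25-3p and miR-19b-3p at P1, and miR-25-3p, miR-19b-3p, miR-93-5p and miR-17-5p at both P7 and P28. In this middle group miR-17-5p was level with miR-25-3p at P1, with a ratio of 1.01 (0.926 to 1.10), and stood below it at P7 and P28. At P7 miR-19b-3p and miR-93-5p did not differ beyond counting error, at 1.08 (0.984 to 1.19). All other neighbours in the order differed beyond it within their library. Among all mature accessions, miR-92a-3p ranked 33 at P1, 49 at P7 and 50 at P28, and miR-20a-5p 38, 55 and 69.

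Other accessions followed similar courses. Over the 3 libraries, 127 mature accessions outside the clusters, each averaging 100 CPM or more, were ranked by the distance of their log2 ratios at both steps from those of each cluster. The nearest to miR-106b-25 was MIMAT0000132, at a distance of 0.11, with 3047, 2672 and 1189 CPM at P1, P7 and P28. The nearest to miR-17-92 was MIMAT0004691, at 0.20, with 203, 119 and 56.6 CPM. The 5 nearest lay within 0.33 of miR-106b-25 and within 0.40 of miR-17-92.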

How the data were processed

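Small RNA was sequenced from hearts at P1, P7 and P28, with 1 library per age built with a NEBNext small RNA kit. The values are whole read counts per miRNA, not normalized, as the authors deposited them. For its RNA-seq in general the study gives TopHat2 as the aligner and Bioconductor software for counting, and the submitters' processing notes for these libraries name bcl2fastq, TopHat and mm10. The miRBase release, the handling of reads with several matches and the use of strand are not given in the sources used here. Columns were matched to ages by the age code in their names. Of the rows, 2035 were mature and 14 stem-loop accessions.

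Counts were summed per accession and divided by the column total. Log2 ratios used a pseudocount of 0.5 reads. The intervals are 95% Clopper-Pearson intervals, and differences between log2 ratios within the same libraries are exact conditional odds ratios. With 1 library per age no quasi-likelihood test of edgeR could be fitted, and no p-values are given. The rule on calls (2-fold, mean of at least 10 CPM) was run on simulated data with counting error only. The simulation held no variation between hearts or libraries, so it cannot show how the rule deals with such variation. No molecular identifiers are stated, so intervals cover counting error only. The rule for the members uses accessions alone, but these clusters and the lists were chosen with earlier results of these data known. All 9 members were named by rule, and the most similar accessions by distance.

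The alternatives were TMM (edgeR 4.0.16), size factors (DESeq2 1.42.0), totals without the 10 most abundant accessions, totals with 1 row per mature accession, a pseudocount of 5 reads, filters at 1 or 100 CPM or none, and ratios of 1.5 or 4. Either row alone, and the seed comparison without miR-20a-5p, were added after the data were seen. Mature sequences came from RefSeq (GRCm38.p6). These sources pair accessions with no names, so the other hairpin arms, the X-linked relatives and the marker miRNAs of heart muscle and other cell types were not analysed here. Software was scipy 1.17.1, numpy 2.4.6 and pandas 2.3.3 under Python 3.11.15, with R 4.3.3 for the scalings and matplotlib 3.10.9 for plots.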

Additional observations from a re-analysis of the deposited data

How the results depend on the processing

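Of 147 log2 ratios of members under the alternatives, 143 kept the sign they had by library totals. The exceptions were miR-92a-3p at P28 against P7, at 0.029 under TMM and 0.155 under DESeq2 size factors, miR-19a-3p at P7 against P1, at 0.055 without the 10 most abundant accessions, and miR-19b-3p at P7 against P1, at -0.21 by its second row alone.

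Scaling moved the clusters most at P28. For P28 against P1, miR-17-92 was at -1.14 (TMM), -1.08 (DESeq2) and -1.29 (without the 10 accessions), and miR-106b-25 at -0.88, -0.81 and -1.02. For P28 against P7 they were at -0.31, -0.19 and -0.55, and at -0.68, -0.55 and -0.91. Without the 10 accessions, P7 against P1 gave -0.74 for miR-17-92 and -0.11 for miR-106b-25. Leaving out miR-19b-3p and miR-92a-3p put miR-17-92 at -1.09, -2.48 and -1.38 for P7 against P1, P28 against P1 and P28 against P7.

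The number of members called lower at P28 against P1 was 4 under TMM, under DESeq2 size factors and with a ratio of 4. At P28 against P7 it was 2 (TMM), 1 (DESeq2), 4 (without the 10 accessions) and 0 (ratio of 4), and at P7 against P1 it was 5 with a ratio of 1.5 and 0 with 4. Of all accessions, 27.5% were lower at P28 against P1 under TMM and the same under DESeq2 size factors. At P28 against P7, 23.0% (TMM), 19.9% (DESeq2) and 30.6% (without the 10 accessions) were lower. For the other ratios only the share in either direction is given. The share of all accessions called in either direction was 25.1% and 16.5% with a ratio of 4 at P28 against P1 and against P7, and at P7 against P1 it was 1.37% with 4, 48.1% with 1.5 and 46.1% with no filter. Without miR-20a-5p, the miR-17 seed difference over both clusters was -0.33 for P7 against P1 and -0.80 for P28 against P7. With miR-20a-5p kept, the difference within miR-17-92 among members with 1 row was -0.73 for P7 against P1. It was -0.77 for P28 against P1 and -0.042 for P28 against P7. No paired analysis was possible because a single library stands for every age, and no library could be left out for the same reason. At this depth miR-18a-5p, with 9 reads at P28, was the least certain member.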
